A study of Homo sapiens with 12 samples.

Results

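The genes described here are 35 genes of glycolysis and of the response to low oxygen, chosen by symbol among the 57820 genes of a count table; all 35 were found, and all 35 passed the filter on low counts. They comprised 4 transporters of glucose or lactate, 9 enzymes of the preparatory steps of glycolysis, 6 enzymes of its pay-off steps, 4 genes that decide the fate of pyruvate and lactate, 4 regulators of flux or of glycogen, and 8 genes of the hypoxia factor, its hydroxylases and its targets. The samples were human cells of the lines JVM3, HG3 and MEC1, which the labels give as chronic lymphocytic leukemia, a malignancy of mature B cells. RNA of each line was sequenced with the U1 g.3A>C mutation (MUT) and with wild-type U1 (WT), which asks what the mutation changes in RNA levels and splicing. The 6 groups were JVM3 MUT, JVM3 WT, HG3 MUT, HG3 WT, MEC1 MUT and MEC1 WT, with 2 technical replicates each, 12 libraries in all. How the mutation was brought into the cells, and whether a line is 1 clone, is not stated in the labels.

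Glycolysis breaks glucose down to pyruvate in the cytosol. Its preparatory steps spend ATP to phosphorylate and split the sugar, and its pay-off steps regain ATP and NADH. Pyruvate then enters the mitochondria or is reduced to lactate and exported. When oxygen is short, prolyl hydroxylases stop marking the alpha subunit of hypoxia-inducible factor for destruction, and the factor induces most glycolytic genes together with targets such as VEGFA. U1 is the small nuclear RNA that pairs with the 5' splice site, the start of an intron, when an exon's end is first recognised.

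Libraries held 29880079 to 39716818 reads assigned to genes, and the 35 genes together took 1.02% to 1.36% of them. RNU1-1, a U1 gene, stood at 24.2 to 249 CPM (counts scaled by the library's total, as CPM throughout) in MUT libraries and 12.7 to 40.5 CPM in WT libraries, which does not show the mutated base itself. The gap was widest in HG3, with 249 and 163 CPM in MUT, against 29.3 and 28.8 CPM in WT. JVM3 had 54.1 and 54.3 CPM in MUT, against 40.0 and 40.5 CPM in WT. MEC1 had 25.4 and 24.2 CPM in MUT, against 13.1 and 12.7 CPM in WT. The part of this gap in the results below was not tested. The 9 B cell markers summed to 3213 to 6007 CPM in MUT libraries and 3199 to 5758 CPM in WT libraries, and the 4 T cell markers found to at most 0.842 CPM in MUT libraries and 0.92 CPM in WT libraries. CD5, one of the 9 B cell markers, averaged 40.4 CPM in HG3 MUT and 41.6 CPM in HG3 WT, but at most 0.437 CPM in the groups of JVM3 and MEC1. The 5 myeloid markers summed to 2.39 to 11.2 CPM in MUT libraries and 2.08 to 14.4 CPM in WT libraries. These are bulk measurements, so fewer cells of a kind and less RNA per cell cannot be told apart. The replicates are technical and say nothing of the spread between cultures, so a p-value within a line reflects technical variation alone, and the comparison across lines (n = 3 MUT and 3 WT, with replicates summed) is the one that rests on separate cells.

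Across the 3 lines, HK2, PDK1 and PYGL fell in MUT cells and the other 32 genes did not pass the test. Fold changes are log2 values of MUT over WT from edgeR, and a gene was called at a Benjamini-Hochberg adjusted p under 0.05 over all 21270 genes tested. Of all genes tested, 3.69% were called across lines, 1.83% higher and 1.86% lower in MUT, against 0 higher and 3 lower of the 35. At an unadjusted p under 0.05, 2 of the 35 were higher and 6 lower in MUT, and DESeq2 called 1 higher (PFKM) and 3 lower. The median log2 fold change of the 35 genes was -0.01, beside -0.01 for all genes tested.

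**Figure D1:**
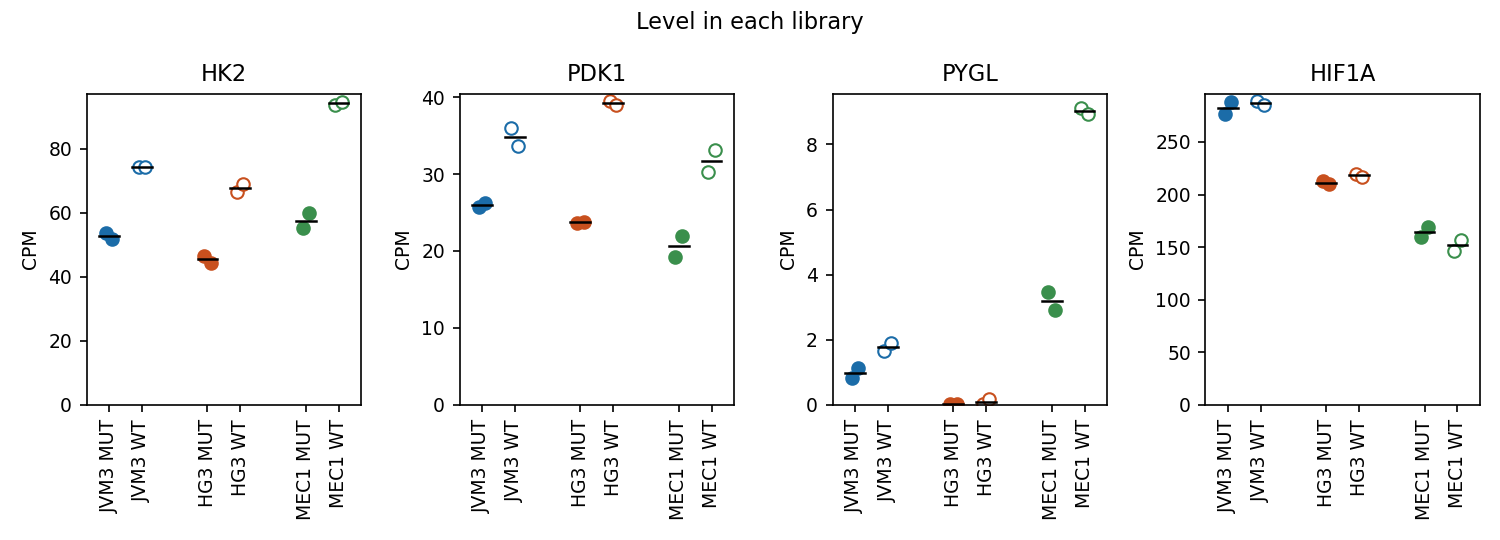
Level of HK2, PDK1, PYGL and HIF1A in CPM (vertical axes, from 0) in each of the 12 libraries, by line with MUT (filled) left of WT (open); bars mark the mean of the 2 technical replicates. HK2 and PDK1 lie lower in MUT than in WT in every line, PYGL is near 0 in HG3, and HIF1A differs between lines but hardly between MUT and WT.

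HK2 encodes hexokinase 2, one of the enzymes that trap glucose in the cell by phosphorylating it. It had 53.7 and 51.7 CPM in JVM3 MUT, against 74.3 and 74.2 CPM in JVM3 WT. In HG3 MUT it had 46.5 and 44.3 CPM, against 66.3 and 69.0 CPM in HG3 WT. MEC1 MUT libraries held 55.2 and 59.8 CPM, against 93.7 and 94.7 CPM in MEC1 WT. Every MUT library thus lay below every WT library, of whichever line, at 51.9 ± 6.08 CPM in MUT and 78.7 ± 13.8 CPM in WT (SD, n = 3 lines each). The log2 fold change across lines was -0.61 (SE 0.09 over the lines, adjusted p = 0.0131), and HK2 was called lower in each line. The size differed between lines (adjusted p = 0.000761), from -0.47 in JVM3 through -0.57 in HG3 to -0.78 in MEC1.

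PDK1 encodes a kinase that switches off pyruvate dehydrogenase and so keeps pyruvate out of the citric acid cycle. Its libraries held 25.7 and 26.2 CPM in JVM3 MUT, against 36.0 and 33.7 CPM in JVM3 WT. HG3 MUT had 23.7 and 23.8 CPM of PDK1, against 39.5 and 39.0 CPM in HG3 WT. In MEC1 MUT the values were 19.3 and 21.9 CPM, against 30.3 and 33.1 CPM in MEC1 WT. No MUT library reached the lowest WT library. The log2 fold change across lines was -0.60 (SE 0.10, adjusted p = 0.0177), and the values -0.40 (JVM3), -0.72 (HG3) and -0.69 (MEC1) were each called within the line. The call across lines was lost without HG3 (adjusted p = 0.0501) and without MEC1 (adjusted p = 0.0575). An antisense gene is listed for PDK1, and no source says whether counting used the strand, so reads of the partners may not be separated. The same holds for SLC16A1, ENO1, HIF1A and EGLN3.

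PYGL encodes the liver form of glycogen phosphorylase, which releases glucose units from glycogen. It had 0.818 and 1.13 CPM in JVM3 MUT, against 1.66 and 1.90 CPM in JVM3 WT. In MEC1 MUT it had 3.48 and 2.92 CPM, against 9.11 and 8.94 CPM in MEC1 WT. HG3 held only 1 and 1 reads in the MUT libraries, against 1 and 5 reads in the WT libraries. The groups did not overlap in JVM3 and MEC1, while HG3 was too thinly covered to show a change, with a MUT to WT ratio of 0.336 (95% interval 0.0332 to 1.88, exact, counting error only). Across lines the log2 fold change was -1.25 (SE 0.22, adjusted p = 0.0315). Without MEC1 it was -0.91 and did not pass (adjusted p = 0.283), and within JVM3 the call (log2 fold change -0.84, adjusted p = 0.00628) was lost without 1 MUT or 1 WT library (adjusted p = 0.133 and 0.0992). Wild-type levels differed 99.25-fold between MEC1 and HG3 (interval 45.3 to 271.5).

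Within lines, more of the 35 genes were called, and the 3 lines did not move them the same way. In JVM3 11 genes rose, 5 fell and 19 did not pass, where 22.4% of all genes tested were called, 10.4% higher and 12% lower. In HG3 3 rose, 19 fell and 13 did not pass, where 38.3% of all genes were called, 18.7% higher and 19.6% lower. In MEC1 13 rose, 11 fell and 11 did not pass, where 36.6% of all genes were called, 18% higher and 18.6% lower. With library totals alone in place of TMM factors the MEC1 split was 16 higher and 8 lower. The median log2 fold changes of the 35 were 0.08 in JVM3, -0.16 in HG3 and 0.05 in MEC1, beside -0.02, 0.01 and 0.00 for all genes.

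Well-covered genes are called more easily. Among the 9628 genes of at least 10 CPM, which include 30 of the 35, 4.8% were called across lines (1.55% higher and 3.25% lower), against 0 higher and 2 lower of the 30. Within JVM3, 38.4% of these genes were called, and 18.6% were called higher and 19.7% lower, against 10 and 4 of the 30. In HG3 59% were called, and 26% of these genes were called higher and 32.9% lower, against 2 and 18 of the 30. For MEC1 58.4% were called, and 28.4% were called higher and 30% lower, against 13 and 8 of the 30. Within lines, the lower calls in HG3 and the higher calls in JVM3 and MEC1 were the ones above these shares. Across lines, 2 lower calls are too few to set apart from the share of 3.25%. The summed level of 6 proliferation markers differed with status too. The sum averaged 953 CPM in JVM3 MUT and 1251 CPM in JVM3 WT, 1035 CPM in HG3 MUT and 1731 CPM in HG3 WT, and 2602 CPM in MEC1 MUT and 2313 CPM in MEC1 WT. All 6 were lower in MUT in JVM3 and HG3. In MEC1 they went both ways, with MKI67 at 799 CPM in MUT and 561 CPM in WT, and TOP2A at 662 CPM in MUT and 705 CPM in WT. Their part in these results was not tested.

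**Figure D2:**
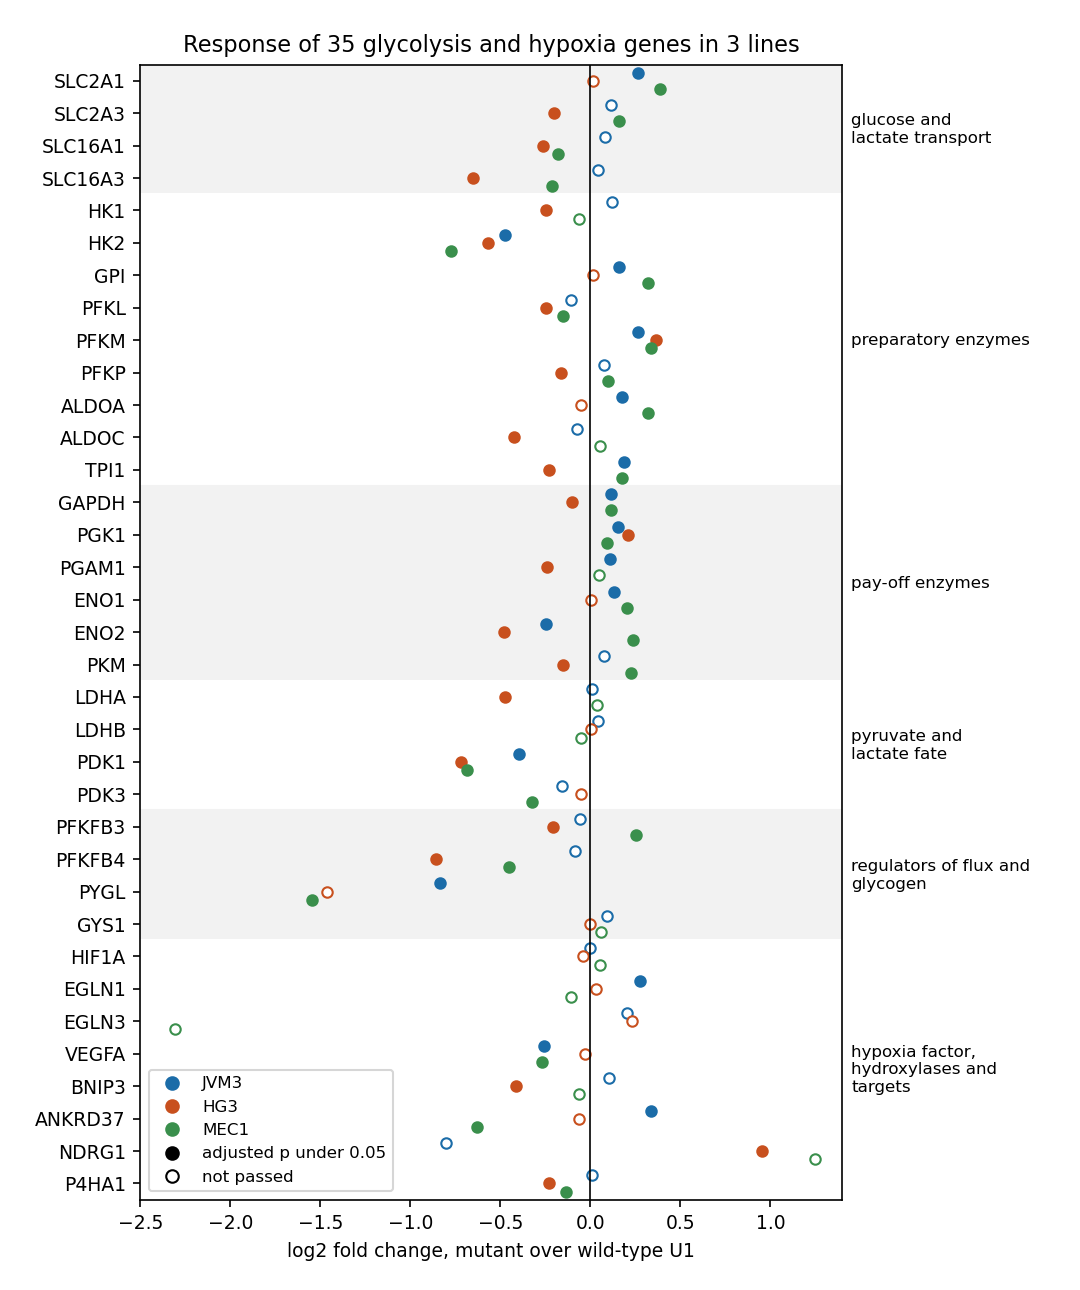
Log2 fold change of MUT over WT (horizontal axis) for the 35 genes, listed down the page by role, with 1 point per line (colour); filled points passed an adjusted p under 0.05 within the line. HK2, PDK1 and PYGL lie left of 0 in each line and PFKM and PGK1 right of it, while for most pay-off enzymes the HG3 point lies left of the JVM3 and MEC1 points.

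The response to mutant U1 differed between the lines for 26 of the 35 genes (interaction of line and status), against 32% of all genes tested and 56.2% of those of at least 10 CPM, where 23 of the 30 were called. In 21 of the 26 (80.8%) the fold change in HG3 was the lowest of the 3 lines, as it was in 38.2% of all genes whose response differed and in 41.5% of those of at least 10 CPM. For 8 genes HG3 was called lower while JVM3 or MEC1 was called higher: SLC2A3, PFKP, TPI1, GAPDH, PGAM1, ENO2, PKM and PFKFB3. These are 22.9% of the 35, and the same pattern held for 2.68% of all genes tested and 5.38% of those of at least 10 CPM. Of the 35, 4 (11.4%) were called in 1 direction in all 3 lines, HK2 and PDK1 lower and PFKM and PGK1 higher. The share was 8.99% of all genes tested, and 16.6% of those of at least 10 CPM against 4 of the 30 (13.3%). PFKM, the muscle form of phosphofructokinase, rose by 0.26, 0.36 and 0.34 on the log2 scale in JVM3, HG3 and MEC1, and across lines it stood at 0.32 (SE 0.03, adjusted p = 0.0529), just short of the threshold.

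Of the transporters, SLC16A1 and SLC16A3, which carry lactate and other monocarboxylates, were lower in MUT cells of HG3 and MEC1, while SLC2A1, the main basal glucose transporter, was higher in JVM3 and MEC1. Counts were 1 higher and 0 lower of 4 in JVM3 (at an unadjusted p under 0.05 3 and 0, by DESeq2 1 and 0), 0 higher and 3 lower in HG3 (0 and 3 on both), and 2 higher and 2 lower in MEC1. SLC16A3 had 24.98 and 25.9 CPM in HG3 MUT, against 40.3 and 40.2 CPM in HG3 WT. The JVM3 MUT libraries held 31.1 and 33.3 CPM of it, against 32.7 and 31.0 CPM in JVM3 WT, and MEC1 MUT libraries 11.8 and 10.2 CPM, against 12.6 and 11.9 CPM in MEC1 WT. Its groups were thus well apart in HG3, close in MEC1 and overlapping in JVM3. The log2 fold changes were -0.65 in HG3 (adjusted p = 8.72e-12), -0.21 in MEC1 (0.0393) and 0.04 in JVM3 (0.722), and they differed (adjusted p = 1.03e-07). With library totals alone the MEC1 call was lost (adjusted p = 0.15).

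SLC16A1 had the highest level per kb of exon among the transporters. It stood at 94.6 and 92.0 CPM in HG3 MUT, against 109.7 and 116 CPM in HG3 WT. MEC1 MUT libraries had 163 and 171 CPM, against 183 and 180.3 CPM in MEC1 WT, and JVM3 MUT libraries 223 and 218 CPM, against 208 and 215 CPM in JVM3 WT. The MUT libraries lay below their WT libraries in HG3 and MEC1 and above them in JVM3, and the responses differed (adjusted p = 3.72e-06). SLC2A3, a glucose transporter of high affinity, was the transporter that differed most among the WT lines. It had 95.5 and 96.1 CPM in JVM3 MUT, against 90.2 and 89.98 CPM in JVM3 WT. In HG3 it had 19.7 and 19.0 CPM in MUT, against 21.6 and 23.2 CPM in WT, and in MEC1 28.1 and 26.8 CPM in MUT, against 22.8 and 24.5 CPM in WT. JVM3 stood 4.02-fold above HG3 among WT lines, while its log2 fold changes of MUT over WT ran from -0.20 in HG3 to 0.16 in MEC1.

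Of the preparatory enzymes, 4 rose and 1 fell of 9 in JVM3, 1 rose and 6 fell in HG3, and 5 rose and 2 fell in MEC1. HK2 was the gene called lower in each line, and PFKM the one called higher in each line. TPI1, the isomerase that interconverts the triose phosphates, had the highest level per kb of this role. It had 622 and 618 CPM in JVM3 MUT, against 562 and 544 CPM in JVM3 WT. In MEC1 MUT it had 544 and 527 CPM, against 459 and 452 CPM in MEC1 WT. HG3 went the other way, with 456 and 444 CPM in MUT, against 546 and 512 CPM in WT. The log2 fold changes were 0.19, 0.17 and -0.23 in JVM3, MEC1 and HG3 (adjusted p = 3.41e-05, 5.11e-05 and 4.15e-07), and they differed between lines (adjusted p = 5.11e-10).

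HK1, the hexokinase of most tissues, was called lower in HG3 and did not pass in the others. It had 87.8 and 84.1 CPM in HG3 MUT, against 104 and 101 CPM in HG3 WT. JVM3 MUT libraries had 53.2 and 50.3 CPM, against 48.6 and 48.1 CPM in JVM3 WT, and MEC1 MUT libraries 33.1 and 32.8 CPM, against 32.9 and 33.2 CPM in MEC1 WT. The HG3 libraries were the highest and did not overlap between MUT and WT, and those of MEC1 did overlap. In HG3 the log2 fold change was -0.25 (adjusted p = 8.34e-06). Among WT lines HK1 was 3.10-fold higher in HG3 than in MEC1.

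With TMM factors in edgeR, most pay-off enzymes were called higher in JVM3, most higher in MEC1 and most lower in HG3, but these were not the same genes throughout. GAPDH alone was called higher in both JVM3 and MEC1 and lower in HG3. Of 6, 4 rose and 1 fell in JVM3, 1 rose and 4 fell in HG3, and 5 rose and 0 fell in MEC1. The 0 also held at an unadjusted p under 0.05 and by DESeq2. The JVM3 counts were 3 higher and 1 lower both with library totals alone and by DESeq2. With library totals alone PGAM1 lost its edgeR call in JVM3 (adjusted p = 0.0476 before, 0.13 after) and gained one in MEC1 (0.0257). Across lines 0 of the 6 were called in either direction, also at an unadjusted p under 0.05 and by DESeq2. GAPDH, which oxidises glyceraldehyde 3-phosphate, was the most abundant of all 35 genes per kb. It had 4234 and 4204 CPM in JVM3 MUT, against 3996 and 3906 CPM in JVM3 WT, and 3715 and 3521 CPM in MEC1 MUT, against 3277 and 3135 CPM in MEC1 WT. HG3 MUT libraries had 4122 and 4147 CPM, against 4563 and 4347 CPM in HG3 WT. MUT and WT libraries did not overlap in any line, higher in JVM3 and MEC1 and lower in HG3. The changes were small, at log2 values of 0.12, 0.11 and -0.10 in JVM3, MEC1 and HG3 (adjusted p = 0.00304, 0.00216 and 0.00651), and they differed between lines (adjusted p = 3.93e-05).

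Among the other pay-off genes, PGK1, the first ATP-yielding enzyme, rose in each line by 0.15, 0.21 and 0.09 on the log2 scale in JVM3, HG3 and MEC1. ENO2, the neuronal enolase, fell in JVM3 (-0.24) and HG3 (-0.48) and rose in MEC1 (0.24). PKM, the pyruvate kinase whose splicing is described further on, was called lower in HG3 (-0.15) and higher in MEC1 (0.22). Pseudogene copies are listed for 17 of the 35 genes by symbol, 64 of them for GAPDH and 42 for BNIP3, so counts of these genes may hold or lose reads of a copy. How alike the copies are in sequence was not examined.

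Few genes of pyruvate and lactate fate were called, and those were lower in MUT. Among 4, 0 rose in any line, also at an unadjusted p under 0.05 and by DESeq2, and 1 fell in JVM3, 2 in HG3 and 2 in MEC1. PDK1 was called in each line, LDHA only in HG3 and PDK3 only in MEC1. Of genes of at least 10 CPM, 19.7%, 32.9% and 30% were called lower in JVM3, HG3 and MEC1. Counts of 1 or 2 of 4 are too few to set apart from these shares. LDHB, the lactate dehydrogenase subunit that favours lactate oxidation, was the most abundant per kb. It had 1130 and 1134 CPM in JVM3 MUT, against 1119 and 1117 CPM in JVM3 WT, 812 and 788 CPM in HG3 MUT, against 788 and 814 CPM in HG3 WT, and 854 and 843 CPM in MEC1 MUT, against 839 and 849 CPM in MEC1 WT. LDHB did not pass in any line, with log2 fold changes of 0.04, 0.01 and -0.05 in JVM3, HG3 and MEC1. LDHA, the subunit that favours lactate production, was -0.48 in HG3 (adjusted p = 1.57e-16), and 0.01 and 0.04 in JVM3 and MEC1, where it did not pass. With library totals alone as the scaling LDHA was called higher in MEC1 (0.10, adjusted p = 0.0137).

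Among the regulators, PFKFB4, which makes the activator of phosphofructokinase, was called lower in HG3 and MEC1. It had 6.07 and 6.40 CPM in HG3 MUT, against 12.7 and 9.93 CPM in HG3 WT. MEC1 MUT libraries had 5.79 and 5.87 CPM, against 7.99 and 7.30 CPM in MEC1 WT, and JVM3 MUT libraries 5.47 and 5.49 CPM, against 5.85 and 5.97 CPM in JVM3 WT. All MUT libraries lay in a narrow band, and the WT libraries of HG3 stood highest. The log2 fold changes were -0.86 in HG3 (adjusted p = 2.49e-08), -0.45 in MEC1 (0.00206) and -0.09 in JVM3 (0.697), and they differed (adjusted p = 0.00112). GYS1, the glycogen synthase of muscle and other tissues and the most abundant regulator per kb, had 39.1 and 41.7 CPM in JVM3 MUT, against 38.9 and 38.2 CPM in JVM3 WT. In HG3 it had 54.3 and 51.9 CPM in MUT, against 53.8 and 52.8 CPM in WT, and in MEC1 44.3 and 42.2 CPM in MUT, against 41.2 and 38.5 CPM in WT. GYS1 did not pass in any line.

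Among the 8 hypoxia genes, 2 rose and 1 fell in JVM3, 1 rose and 2 fell in HG3, and 0 rose and 3 fell in MEC1, where the 0 held also at an unadjusted p under 0.05 and by DESeq2. HIF1A, the oxygen-regulated subunit, did not pass in any line. It had 277 and 288 CPM in JVM3 MUT, against 289 and 285 CPM in JVM3 WT, 213 and 209.6 CPM in HG3 MUT, against 219.5 and 217 CPM in HG3 WT, and 159.9 and 169 CPM in MEC1 MUT, against 146 and 157 CPM in MEC1 WT. Its log2 fold changes were 0.00, -0.04 and 0.06 in JVM3, HG3 and MEC1, with adjusted p from 0.291 to 1. With library totals alone HIF1A was called higher in MEC1 (0.12, adjusted p = 0.0154). These are RNA levels, and the factor is regulated mainly through protein stability.

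VEGFA, an angiogenic growth factor, fell in JVM3 and MEC1. It had 129.6 and 136 CPM in JVM3 MUT, against 162 and 161 CPM in JVM3 WT, and 59.3 and 60.3 CPM in MEC1 MUT, against 70.9 and 67.1 CPM in MEC1 WT. HG3 MUT libraries had 59.0 and 60.9 CPM, against 63.1 and 59.8 CPM in HG3 WT. The groups overlapped in HG3 and nowhere else. The log2 fold changes were -0.26 in JVM3 (adjusted p = 3.66e-06), -0.27 in MEC1 (5.70e-06) and -0.03 in HG3 (0.656), and they differed (adjusted p = 0.00369). BNIP3, a mitophagy receptor, was called lower in HG3 (-0.41, adjusted p = 1.82e-05). It had 17.8 and 19.0 CPM in HG3 MUT, against 24.2 and 25.04 CPM in HG3 WT, 5.84 and 5.72 CPM in JVM3 MUT, against 5.29 and 5.60 CPM in JVM3 WT, and 17.1 and 15.1 CPM in MEC1 MUT, against 16.6 and 15.7 CPM in MEC1 WT. Its WT level was 4.52-fold higher in HG3 than in JVM3.

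ANKRD37, an ankyrin repeat gene induced by hypoxia, moved in opposite directions. It had 8.996 and 7.65 CPM in JVM3 MUT, against 6.39 and 6.94 CPM in JVM3 WT, and was called higher (0.34, adjusted p = 0.0228). In MEC1 MUT it had 10.8 and 10.8 CPM, against 15.0 and 17.2 CPM in MEC1 WT, and was called lower (-0.63, adjusted p = 6.86e-07). HG3 did not pass, with 6.44 and 7.46 CPM in MUT, against 7.76 and 6.81 CPM in WT. The difference between lines was called (adjusted p = 3.28e-06).

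EGLN3 and NDRG1 were close to silent in MEC1. EGLN3, a prolyl hydroxylase that HIF itself induces, had 12.6 and 10.95 CPM in JVM3 MUT, against 10.5 and 10.2 CPM in JVM3 WT. HG3 MUT libraries had 10.2 and 11.3 CPM, against 8.99 and 9.47 CPM in HG3 WT, and MEC1 held 0 and 0 reads in MUT, against 1 and 0 reads in WT. JVM3 WT thus stood 669.9-fold above MEC1 WT (95% exact interval 119.8 to 26500, counting error only), and no response in MEC1 can be read from 1 count. NDRG1, a stress-induced gene, had 103 and 99 reads in HG3 MUT, against 64 and 42 reads in HG3 WT. The other lines had fewer, with 7 and 7 reads in JVM3 MUT, against 7 and 15 in JVM3 WT, and 2 and 1 reads in MEC1 MUT, against 1 and 0 in MEC1 WT. In HG3 NDRG1 was called higher (0.95, adjusted p = 0.00219), and this call was lost by DESeq2 (adjusted p = 0.0622) and without 1 WT library (0.0548). HG3 WT stood 104-fold above MEC1 WT (interval 18.3 to 4144).

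Nearly all of these genes differed in level between the WT lines. Of the 35, 34 were called between the 3 WT lines, against 82.8% of all genes tested, and 29 of 30 against 94.7% among genes of at least 10 CPM, so the share lies near that of genes of like level. EGLN1, the main oxygen-sensing hydroxylase, was the exception (adjusted p = 0.159), with 30.4 CPM in MEC1 WT and 24.6 CPM in JVM3 WT. The highest WT line was HG3 for 18 genes, JVM3 for 12 and MEC1 for 5. In 23 genes the highest and lowest WT lines lay less than 2-fold apart. Each line is 1 culture label, so line and culture cannot be told apart.

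**Figure D3:**
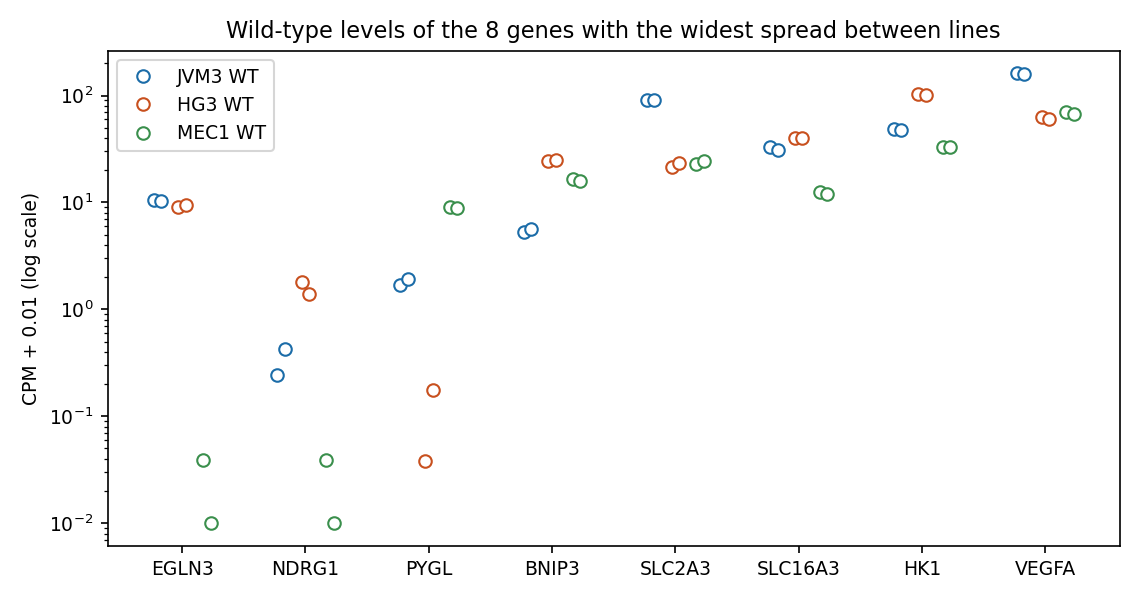
Level in WT libraries of the 8 genes with the widest spread between WT lines (at least 1 CPM in some line), as CPM plus 0.01 on a log axis, with 2 technical replicates per line (colour). EGLN3 and NDRG1 are at or near the floor in MEC1, PYGL is lowest in HG3, and SLC2A3 and VEGFA are highest in JVM3.

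The other genes of these pathways were called across lines about as often as genes in general. Of 100 further genes of glycolysis, glycogen, the pentose phosphate path, pyruvate entry and hypoxia, 81 were tested. Across lines 1 rose (1.23%) and 2 fell (2.47%), against 1.83% higher and 1.86% lower of all genes tested, with a median log2 fold change of -0.02. PYGM, the muscle glycogen phosphorylase, was 1.24 (SE 0.33, adjusted p = 0.05, under the threshold before rounding). WSB1, a ubiquitin ligase subunit induced by hypoxia, was -0.50 (SE 0.08, adjusted p = 0.0188), and ZNF395, a transcription factor induced by hypoxia, was -0.66 (SE 0.16, adjusted p = 0.0402). Both were lower in 3 of 3 lines. In JVM3 12 rose (14.8%) and 10 fell (12.3%), against 10.4% and 12% of all genes. In HG3 21 rose (25.9%) and 25 fell (30.9%), against 18.7% and 19.6% of all genes. In MEC1 22 rose (27.2%) and 21 fell (25.9%), against 18% and 18.6% of all genes. Their responses differed between lines for 38 of 81 (46.9%), against 32% of all genes.

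Splice junctions were read from a table with 1 column per line and U1 status and no replicate columns. Junctions could be placed in 27 of the 35 genes and were not placed in SLC16A1, GPI, TPI1, PGK1, PFKFB4, PYGL, EGLN3 and BNIP3, which are therefore not analysed for splicing here. In the 27 genes 308 junctions were found, of which 86 in 18 genes shared an acceptor, the start of the downstream exon, with another and could be tested. Use of a junction is its percentage of the reads at its acceptor. Junctions were called where the adjusted p (edgeR diffSpliceDGE) was under 0.05, use moved by 5 points or more on average, and all 3 lines moved the same way. Of all 35857 junctions tested 2.78% were called, 2% used more and 0.784% used less in MUT. Of the 86, 3 were called: 1 in PKM and 1 in PFKM used more, and 1 in P4HA1 used less. By limma on log2 ratios none of the 86 passed (18 at an unadjusted p under 0.05).

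PKM shifted from its M2 exon towards its M1 exon. The gene makes pyruvate kinase M1 or M2 by including one of a pair of exons of equal length. The M1 enzyme is constitutively active, and the M2 enzyme, which dominates in proliferating cells, is allosterically regulated. Both exons are shown because the change lies in the choice between them, with the last 3 letters of each exon in capitals. The M1 exon lies at chr15:72495363-72495529 and the M2 exon at chr15:72494795-72494961 (hg19, minus strand). Letters are those of GENCODE release 29 transcripts.
PKM M1 exon: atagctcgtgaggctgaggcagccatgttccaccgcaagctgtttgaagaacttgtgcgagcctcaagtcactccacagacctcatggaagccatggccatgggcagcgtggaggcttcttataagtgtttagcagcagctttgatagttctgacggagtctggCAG
PKM M2 exon: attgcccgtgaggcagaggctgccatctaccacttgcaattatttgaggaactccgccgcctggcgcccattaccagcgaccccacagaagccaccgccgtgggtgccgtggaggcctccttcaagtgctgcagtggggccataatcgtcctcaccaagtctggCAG
The exons are 167 bases each and hold the same letter at 105 positions (62.87%).

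The junction from the M1 exon to the shared exon after it took 727 of 3451 reads in JVM3 MUT, against 357 of 3007 in JVM3 WT. HG3 had 651 of 3315 reads in MUT, against 231 of 4022 in WT, and MEC1 had 584 of 2859 in MUT, against 153 of 2349 in WT. Use was 21.07% (95% Wilson interval 19.74 to 22.46) in JVM3 MUT and 11.87% (10.76 to 13.08) in JVM3 WT. It was 19.64% (18.32 to 21.03) in HG3 MUT and 5.74% (5.07 to 6.51) in HG3 WT, and 20.43% (18.99 to 21.94) in MEC1 MUT and 6.51% (5.58 to 7.58) in MEC1 WT. The 3 MUT columns thus stood close to one another and above every WT column, with intervals that did not overlap. The mean over lines was 20.38% in MUT and 8.04% in WT, a change of 12.33 points (adjusted p = 6.59e-07), with adjusted p up to 0.0805 (limma) over the alternatives tried. The M2 junction remained the main one, at 79.42% in MUT and 91.66% in WT, and did not itself pass (adjusted p = 0.851). Its share, which changed by -12.24 points, is nearly the complement of the M1 share at this acceptor. That it did not pass is therefore no sign of an unchanged M2 share. Seen from the shared exon before the pair, the junction into the M1 exon took 25.04% in MUT and 10.65% in WT on average (adjusted p = 0.000673).

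The starts of the introns after these exons differ in 1 letter. The 9 letters of each 5' splice site are the last 3 of the exon and the first 6 of the intron, with the 9th in capitals, counted from 1 at the first letter. They are shown because the U1 nucleotide that is mutated pairs with the base at the 9th of these letters.
PKM M2 5' splice site: caggtaggA
PKM M1 5' splice site: caggtaggG
From M2 to M1 the difference is A9G. Letters could be read for 45 of the 159 annotated 5' splice sites of the 27 genes, where some transcript runs on into the intron. They served 24 tested junctions. The PFKM junction called below, used 11.76 points more in MUT, starts at a site with T as the 9th letter. The junction into the skipped exon starts at the same site, so this letter cannot tell skipping from inclusion. The skipped exon's own 5' splice site could not be read. Other junctions with G as the 9th letter, in PFKM, ALDOA and LDHA, changed by -0.53 to 0.53 points. In LDHA and ALDOA the main competing site at the same acceptor also has G, and the PFKM junction already stood at 98.83% in WT. These junctions therefore cannot show what the letter does. Junctions with A as the 9th letter changed by 1.62 points (SLC16A3) and -2.92 points (PFKM). What this letter has to do with exon choice was not tested.

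P4HA1 switched between alternative exons as well. The gene encodes the catalytic subunit of collagen prolyl 4-hydroxylase and is induced by hypoxia. The exons lie at chr10:74804739-74804809 (upstream, used less in MUT) and chr10:74803645-74803715 (downstream, used more), hg19, minus strand, and are shown because the change lies between them, with the last 3 letters in capitals.
P4HA1 upstream exon: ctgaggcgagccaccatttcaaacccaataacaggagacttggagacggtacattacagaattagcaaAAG
P4HA1 downstream exon: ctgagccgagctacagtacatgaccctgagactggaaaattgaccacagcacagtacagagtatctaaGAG
They are 71 bases each and hold the same letter at 43 positions (60.56%).

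The junction leaving the upstream exon took 54 of 324 reads in JVM3 MUT, against 94 of 291 in JVM3 WT. HG3 had 38 of 251 reads in MUT, against 95 of 245 in WT, and MEC1 had 17 of 157 in MUT, against 62 of 157 in WT. Use was 16.67% (95% Wilson interval 13 to 21.11) in JVM3 MUT and 32.3% (27.19 to 37.88) in JVM3 WT. It was 15.14% (11.23 to 20.1) in HG3 MUT and 38.78% (32.89 to 45.01) in HG3 WT, and 10.83% (6.87 to 16.66) in MEC1 MUT and 39.49% (32.18 to 47.3) in MEC1 WT. Every MUT column lay below every WT column. The mean was 14.21% in MUT and 36.86% in WT, a change of -22.64 points (adjusted p = 0.000542). It did not pass by limma (adjusted p = 0.103) or when junctions were grouped by their donor, the end of the upstream exon (-12.15 points, adjusted p = 1). In that grouping the junction entering the upstream exon was called instead, at 18.07% in MUT and 44.43% in WT (adjusted p = 0.0133). The P4HA1 count itself was little changed, with log2 fold changes of 0.01, -0.23 and -0.14 in JVM3, HG3 and MEC1, of which the last 2 passed, the MEC1 call being lost with library totals alone (adjusted p = 0.288).

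PFKM skipped an exon more often in MUT cells. The exon, 93 bases at chr12:48529074-48529166 (hg19, plus strand), is shown because it is the part left out, with its last 3 letters in capitals.
PFKM skipped exon: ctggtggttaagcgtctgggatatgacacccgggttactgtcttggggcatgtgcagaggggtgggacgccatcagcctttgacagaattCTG
The skipping junction took 126 of 544 reads in JVM3 MUT, against 56 of 366 in JVM3 WT. HG3 had 159 of 488 in MUT, against 33 of 371 in WT, and MEC1 had 23 of 218 in MUT, against 12 of 176 in WT. Skipping stood at 23.16% (95% Wilson interval 19.81 to 26.89) in JVM3 MUT and 15.3% (11.97 to 19.35) in JVM3 WT, at 32.58% (28.57 to 36.86) in HG3 MUT and 8.89% (6.4 to 12.23) in HG3 WT, and at 10.55% (7.13 to 15.33) in MEC1 MUT and 6.82% (3.94 to 11.54) in MEC1 WT. HG3 moved most, and the intervals of MEC1 overlapped. The mean was 22.1% in MUT and 10.34% in WT, a change of 11.76 points (adjusted p = 0.00725). Without HG3 it was 5.8 points and did not pass (adjusted p = 0.473), nor did it pass by limma (0.261).

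**Figure D4:**
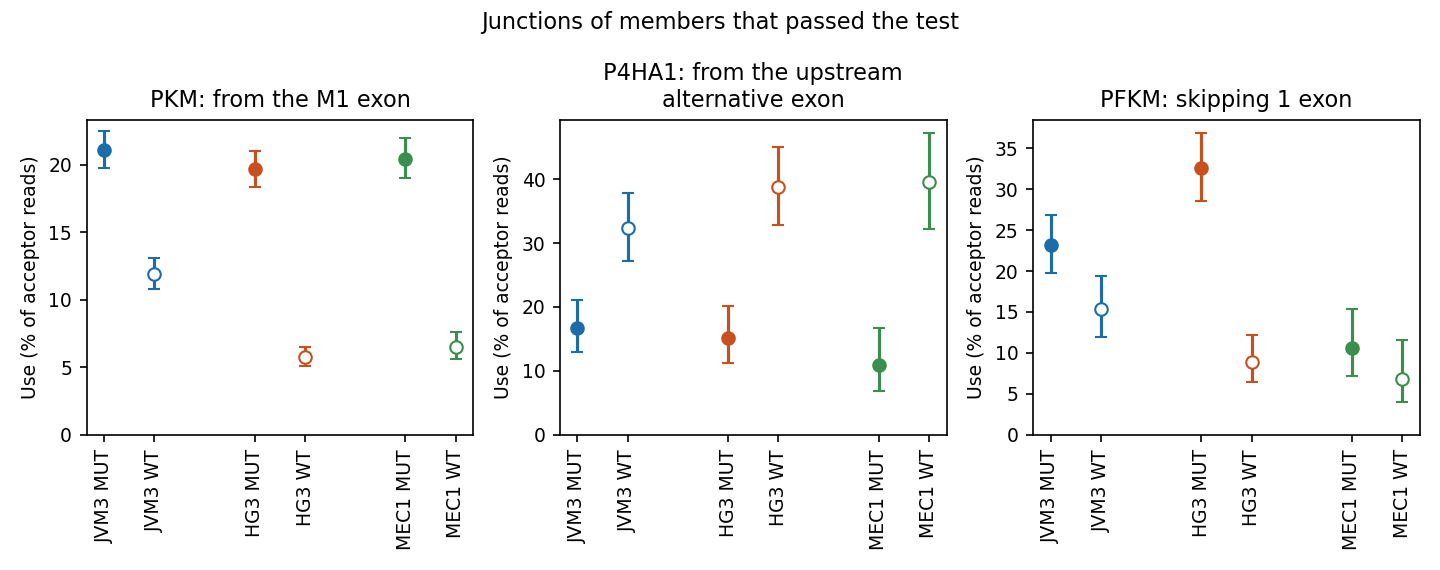
Use of the called junctions of PKM, P4HA1 and PFKM, in percent of reads at the acceptor (vertical axes, from 0), by line with MUT (filled) left of WT (open); bars are 95% Wilson intervals of counting error. M1 junction use lies between 19.64% and 21.07% in the MUT columns and at most at 11.87% in the WT columns, and P4HA1 runs the other way.

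The remaining 83 junctions did not meet the rule, and 69 of the 86 changed by less than 5 points on average. Of the 20 tested junctions absent from the annotation used, 0 were called. Among these, a junction of PFKP, the platelet form of phosphofructokinase, had an adjusted p of 0.0486 but changed only by 1.66 points, at 1.98% in MUT and 0.32% in WT. In HK2 the junction from an alternative first exon stood at 11.38% in MUT and 3.92% in WT, with 4 to 13 reads per column, and did not pass (adjusted p = 0.152). Reads per acceptor started at 22 in a column, with a median of 346.5, so shifts of a few points were not detectable at the thinner acceptors.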

How the data were processed

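Total RNA was extracted with Trizol and made into stranded libraries after removal of ribosomal RNA, per the labels' protocols. The gene table holds raw read counts deposited by the authors, made with STAR 2.5.4b and HTSeq 0.9.1 on the builds hg19 and GRCh37, per the submitters' processing notes, which give no strand setting or annotation release. The junction table, also deposited by the authors, gives raw counts per splice junction, 15537369 to 17917160 reads in each of 6 columns, 1 per line and status, taken as pooled over replicates. Entries without a gene stayed out of totals and tests (reads in no feature 17.7% to 24.9%, ambiguous 0.897% to 1.06%, not uniquely aligned 29.0% to 34.9%). The 35 genes and all gene lists were chosen with earlier results of these data known.

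Genes were tested with edgeR 4.0.16 in R 4.3.3 (quasi-likelihood F-test, robust, TMM, filterByExpr), and checked on simulated counts. Across lines, replicates were summed and the line was a block. Within lines, for differences between responses and between WT lines, the 12 libraries formed 6 groups. CPM were computed here from counts and gene totals, and levels per kb used exon lengths of GENCODE release 29. SE is that of the 3 lines' log2 fold changes. Replicates of a group differed beyond counting noise (mean chi-square per gene 2.14 to 4.80), so each was kept. Use of junctions was tested with diffSpliceDGE on junctions of at least 20 reads, with the line as a block. Junctions were placed in genes by exact intron lengths of GENCODE release 29 (at least 2 introns and 2 times the next best place), which placed 1 of 805 tries on a wrong chromosome; coordinates are those of the junction table, and none were converted. Intervals cover counting error only.

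Values in each library are given for genes called across lines or called with at least a 1.5-fold change in a line, for the 8 with the largest fold between WT lines, for the most abundant per kb of each role, and for called junctions. Other genes were named after their values were seen. Alternatives were RLE factors, library totals alone, no filter, DESeq2 1.42.0, a replicate block, libraries or lines left out and, for junctions, 50 reads, grouping by donor and limma 3.58.1.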

Additional observations from a re-analysis of the deposited data

Results flagged for a closer look

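The responses of 26 of the 35 genes to mutant U1 differed between the lines, by the interaction of line and status in edgeR, whose error is technical spread alone. Among the genes described by library, those whose log2 fold changes of MUT over WT differed were these. The transporters SLC16A1 (adjusted p = 3.72e-06), SLC16A3 (1.03e-07) and SLC2A3 (0.00126) were each lower in HG3 MUT than in HG3 WT and near or above 0 in JVM3. Within MEC1, SLC16A1 and SLC16A3 were called lower and SLC2A3 higher. The enzymes TPI1 (5.11e-10), GAPDH (3.93e-05) and HK1 (5.92e-05) were lower in HG3 MUT, and the first pair were higher in JVM3 and MEC1. HK2 (0.000761) and PDK1 (0.00624) fell in every line, by different amounts. PFKFB4 (0.00112) fell in HG3 and MEC1, BNIP3 (0.00277) fell in HG3, VEGFA (0.00369) fell in JVM3 and MEC1, and ANKRD37 (3.28e-06) rose in JVM3 and fell in MEC1. NDRG1 (0.0334) rose in HG3, and the other lines held few reads of it. What sets the lines apart was not tested.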

How the results depend on the processing

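The 3 calls across lines became 5 with no filter on low counts (1 higher, 4 lower, with 91.6% of genes then at an infinite prior degree of freedom), 1 without line MEC1 and 14 with the 12 libraries unsummed (6 higher, 8 lower), where technical replicates stand in for lines. DESeq2 gave 4, 1 higher and 3 lower. Leaving out 1 library at a time gave 3 to 4 calls across lines, 12 to 17 in JVM3, 20 to 22 in HG3, 19 to 24 in MEC1, 24 to 28 for the difference between lines and 34 to 34 between WT lines. HK2 kept its call across lines in all 21 alternatives (adjusted p from 4.13e-08 to 0.0407), PDK1 in 19 and PYGL in 20. The junction calls fell to 0 with limma, which called 539 junctions in the whole table, and 18 of the 86 had an unadjusted p under 0.05. None of the named genes and junctions tested this way changed direction. Medians near 0 did. The median log2 fold change of the 35 across lines was 0.003 with library totals alone, and that of the transporters in MEC1 0.049 in place of -0.011, while with RLE factors that of the preparatory enzymes across lines was -0.004 in place of 0.001. The PKM junction has no competitor at its donor, so grouping by donor gave it no value. The cause of these shifts was not tested beyond what each setting removes. Reads limit PYGL, EGLN3 and NDRG1, and the acceptors behind the P4HA1 and PFKM calls hold 157 to 544 reads per column.

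With the replicate number as a replicate block, the calls across lines numbered 10 (4 higher, 6 lower, on unsummed libraries), and those within lines 22 (JVM3), 22 (HG3) and 24 (MEC1), with 29 for the difference between lines and 34 between WT lines. Same-numbered libraries correlated at 0.02 (JVM3), 0.10 (HG3) and 0.19 (MEC1) in their deviations from group means, so the numbers were not taken as pairs.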
